A study of Xenopus laevis with 36 samples.

Results

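Skin wounds of *Xenopus laevis* that had been given a macrophage growth factor were compared with control wounds at 14 days post wounding (dpw), taking the cytokines rCSF1 and rIL34 together. The comparison covers 6 rCSF1-, 6 rIL34- and 6 rctrl-administered wounds. These 18 libraries were chosen by their treatment and time labels from the 36 of the study, whose other 18 are the same treatments at 7 dpw. The frogs were outbred wild-type (WT) juveniles whose dorsal skin was opened with a 2 mm biopsy punch that spared the muscle underneath. At 3 dpw cytokine-treated frogs received 1 µg of recombinant CSF1 (rCSF1) or IL34 (rIL34) in 20 µL by subcutaneous injection. Control frogs received an equal volume of the recombinant control (rctrl). Both cytokines were made in insect cells, and rctrl was prepared alike from cells that carried the expression vector without a cytokine. In the pooled contrast each cytokine had equal weight, so that it is the mean of the rCSF1 and rIL34 effects on the log2 scale.

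CSF1 and IL34 are the ligands of CSF1R, the receptor through which vertebrate macrophages and their precursors survive, divide and mature. Macrophages of healing skin clear debris and spent neutrophils, and they signal to fibroblasts, endothelial cells and lymphocytes. *X. laevis* has a doubled genome, so many genes are present as an L and an S copy, named for the longer and the shorter chromosome of a pair. Where one symbol stands on several rows of the count table, the row is given with it, as in *Sele_row1*.

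Expression is given as normalized CPM (the count of a gene scaled to a common library size), and unless stated otherwise a group's values are its lowest, median and highest library. Total counts were 26892671 to 33188690 in rCSF1, 25205710 to 30784603 in rIL34 and 28978254 to 31625071 in rctrl wounds at 14 dpw. Of 42257 named rows, 28225 were tested, those with 0.5 CPM or more in 10 or more libraries of the 36. A gene was called at a Benjamini-Hochberg adjusted p under 0.05 in edgeR's quasi-likelihood test. The epidermal marker list, 52 rows that all passed the filter, summed to 8308 to 15580 CPM in rCSF1, 10790 to 14580 CPM in rIL34 and 11200 to 18310 CPM in rctrl wounds. The labels number 6 samples a group without stating that each came from its own animal, so p-values measure the spread between these samples. Samples are labelled as skin, and the amount of skin taken around each wound is not stated. In RNA of a mixed tissue, fewer cells of a type and less RNA per cell cannot be told apart.

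Some libraries stood apart from the rest of their group. The 44 tested rows of the skeletal muscle list took 0.452%, 0.683% and 4.56% of the counts in rCSF1 replicates 1, 2 and 6, and 0.0285% to 0.0389% in the other rCSF1 wounds. They took 0.0175% to 0.121% in rIL34 wounds, with the highest share in replicate 1, and 0.0142% to 0.0235% in rctrl wounds. On the first principal component of the 18 libraries (22.1% of the variance), rCSF1 replicates 6, 1 and 2 had scores of -135.7, -54.8 and -46.7, and the other 15 libraries lay between -7.5 and 42.8. Several results, not all, are given with and without these 3 wounds. The fit without them has fewer rCSF1 libraries and less power. A call lost there does not by itself show that a difference came from these wounds. The muscle list was written with earlier results of these data known, so this choice of wounds was not blind to them.

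**Figure D1:**
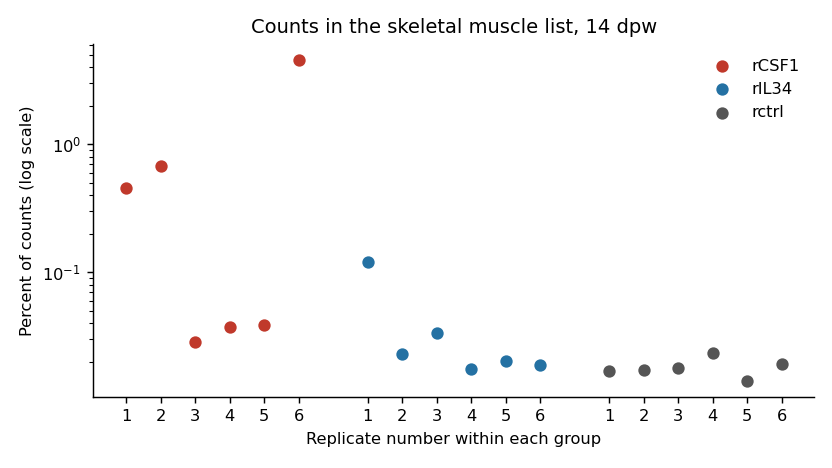
Percent of counts in the 44 tested rows of the skeletal muscle list (log axis) in each of the 18 libraries at 14 dpw, 1 point per library, with the replicate number on the x axis. rCSF1 replicates 1, 2 and 6 lie at 0.452% to 4.56%, and every rctrl wound is at or under 0.0235%.

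The question of the pooled comparison was which genes differed between growth factor-administered and rctrl-administered wounds. Almost none passed the test. The corticotropin-releasing hormone receptor gene *crhr2.L*, the lymphocyte kinase gene *jak3.L* and an uncharacterized locus, LOC121400960, were higher in the cytokine wounds, which is 0.0106% of the 28225 genes tested. No gene was called lower in edgeR (0%), where the smallest adjusted p of a lower gene was 0.075. At an unadjusted p under 0.05, 1443 genes were higher (5.11%) and 859 lower (3.04%). DESeq2 called 240 higher (0.868%) and 38 lower (0.137%), and limma voom called 10 higher and 3 lower.

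*crhr2.L* lies on chromosome 6L from 10388082 to 10579209 (Xenopus_laevis_v10.1). Its product is a receptor for corticotropin-releasing hormone and the urocortins, the peptides of the stress axis. It was at 252, 278 and 308 CPM in rCSF1 wounds, 132, 147 and 250 CPM in rIL34 wounds, and 108, 125 and 137 CPM in rctrl wounds. All 6 rCSF1 and 5 of the 6 rIL34 libraries were above the highest rctrl library. Within rIL34, replicates 1 and 3 were at 250 and 249 CPM and the other 4 at 132 to 149 CPM. The pooled log2 fold change was 0.85 (standard error 0.13, adjusted p = 0.0044), made up of 1.18 for rCSF1 (adjusted p = 6.1e-05) and 0.53 for rIL34 (adjusted p = 0.16). *crhr2.L* was higher in rCSF1 than in rIL34 wounds by 0.65 on the log2 scale (standard error 0.14, adjusted p = 0.016), which was not called without rIL34 replicate 2, 5 or 6 (0.58 to 0.60, adjusted p = 0.054 to 0.068) or without rCSF1 replicates 1, 2 and 6 (0.76, adjusted p = 0.27). Without rCSF1 replicates 1, 2 and 6 its pooled value was 0.91 (adjusted p = 0.01).

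*jak3.L*, on chromosome 1L from 121143639 to 121184730, encodes a kinase that carries the signals of interleukin receptors with the common gamma chain in lymphocytes of mammals. It was at 6.1, 7.66 and 11 CPM in rCSF1 wounds, 5.07, 9.16 and 13.3 CPM in rIL34 wounds, and 2.88, 4.33 and 4.9 CPM in rctrl wounds. The 12 cytokine libraries did not overlap the 6 rctrl libraries. The pooled log2 fold change was 1.05 (standard error 0.17, adjusted p = 0.0091), with 0.99 for rCSF1 (adjusted p = 0.0037) and 1.12 for rIL34 (adjusted p = 0.012). It was the only one of the 3 genes that was also called for rIL34 alone. Without rctrl replicate 3 or 4 its adjusted p was 0.065 or 0.081. With the 12 cytokine libraries as 1 group none of the 3 called genes passed (adjusted p = 0.081 for *crhr2.L*, 0.053 for *jak3.L* and 0.096 for LOC121400960).

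LOC121400960, on chromosome 3L from 9216260 to 9399312, has an automatic symbol that falls outside the rule for named genes, and it is named after its values were seen. It was at 20.6, 24.4 and 27.9 CPM in rCSF1 wounds, 8.67, 17.1 and 22.7 CPM in rIL34 wounds, and 6.33, 10.7 and 13.4 CPM in rctrl wounds. All 6 rCSF1 and 4 of the 6 rIL34 libraries exceeded the highest rctrl library. The pooled log2 fold change was 0.96 (standard error 0.17, adjusted p = 0.023), with 1.26 for rCSF1 (adjusted p = 5.5e-04) and 0.67 for rIL34 (adjusted p = 0.18). It was not called without rCSF1 replicates 1, 2 and 6 (0.99, adjusted p = 0.066), nor without any one of rCSF1 replicate 2 and rctrl replicates 1, 3, 4 and 6 (0.86 to 0.98, adjusted p = 0.056 to 0.2).

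**Figure D2:**
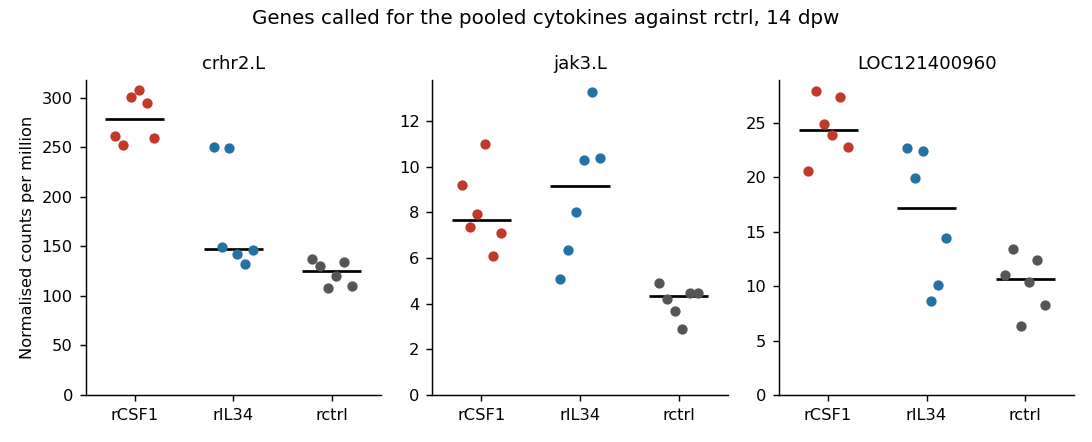
Normalized CPM of *crhr2.L*, *jak3.L* and LOC121400960 in the 18 wounds at 14 dpw, 1 point per library in replicate order, with a bar at each group's median of 6. For *jak3.L* every cytokine library lies above the highest rctrl library (4.9 CPM), while 4 of the 6 rIL34 libraries of *crhr2.L* lie at 132 to 149 CPM, near the rctrl maximum of 137 CPM.

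Taken alone, rCSF1 had 242 genes higher (0.857%) and 27 lower (0.0957%) than rctrl at 14 dpw, and rIL34 had 13 higher (0.0461%) and 1 lower (0.00354%). Both share the rctrl libraries with the pooled contrast. All 3 pooled calls were also called for rCSF1, and no gene was called in the pooled contrast only. Without rCSF1 replicates 1, 2 and 6 the pooled contrast called 2 genes and rCSF1 alone 4. Of the 44 muscle rows, 34 were among the 242 genes higher after rCSF1. The count for rCSF1 was 81 without replicate 6, and that for rIL34 was 1 without rctrl replicate 4 and 42 without rIL34 replicate 1.

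Just outside the threshold lay genes with large differences and wide spreads, none of which passed edgeR's pooled test. The uncalled genes of this and the next paragraph other than *CCL19* were named after their values were seen. The iron carrier gene transferrin, *tf.L*, was at 11.9, 49.6 and 308 CPM in rCSF1 wounds, 3.92, 37.1 and 404 CPM in rIL34 wounds, and 1.97, 4.12 and 7.6 CPM in rctrl wounds, and its pooled log2 value was 4.44 (standard error 0.89, adjusted p = 0.075). For its S copy, *tf.S*, all 12 cytokine libraries were above all rctrl libraries (log2 fold change 1.94, adjusted p = 0.27). The row named *CCL19*, a chemokine that attracts CCR7-bearing lymphocytes and dendritic cells, was at 2.46, 3.97 and 32.1 CPM in rCSF1 wounds, 4.54, 21.9 and 131 CPM in rIL34 wounds, and 1.7, 2.03 and 3.43 CPM in rctrl wounds (log2 fold change 3.02, standard error 0.62, adjusted p = 0.075). For rIL34 alone *CCL19* passed edgeR's test (4.10, adjusted p = 0.012). In the pooled contrast DESeq2 called *tf.L*, *tf.S* and *CCL19* (adjusted p = 3e-07, 0.035 and 3.2e-06). rIL34 replicate 4 held the highest value of *tf.L* and of *CCL19*. In that wound the collagenase genes *mmp1.S* (226 CPM) and *mmp13.S* (147 CPM) were also the highest of the 18 libraries.

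Other genes that edgeR did not call had smaller differences. DESeq2 called each of those named in this paragraph (adjusted p = 0.00036 to 0.01). The glutamine transporter gene *slc38a1.L* had a pooled log2 fold change of 0.54, the acid ceramidase gene *asah1.L* 0.76, and the exchange factor gene of blood cells *rasgrp2.S* 0.71 (adjusted p = 0.075 each). In each of these 3 genes 11 of the 12 cytokine libraries lay above all rctrl libraries. Without rCSF1 replicates 1, 2 and 6 the pooled value of *asah1.L* was 0.57 (adjusted p = 0.55). In the other direction, the gene of the DNA repair helicase family *ercc6l2.L* was at 20, 36.2 and 41.4 CPM in rCSF1 wounds, 26.2, 46.4 and 76 CPM in rIL34 wounds, and 52.7, 69.8 and 106 CPM in rctrl wounds (log2 fold change -0.84, standard error 0.17, adjusted p = 0.075). Without rCSF1 replicates 1, 2 and 6 *ercc6l2.L* was at -0.69 (adjusted p = 0.46). The histone deacetylase complex gene *sap30.S* had a value of -0.58 and the arrestin-domain gene *arrdc3.S* one of -0.55 (adjusted p = 0.075 each). The transcription factor genes *hoxa3.S* (-0.43, adjusted p = 0.084) and *gtf2ird1.L* (-0.58, adjusted p = 0.087) came next. *xetrov90011961m.S*, at -1.80 (adjusted p = 0.075), was at 120 and 104 CPM in rctrl replicates 3 and 6 and at 10.6 to 14.3 CPM in the other 4 rctrl wounds. When the first of these 2 wounds was left out the value was -1.24 (adjusted p = 0.3), and when the second was, -1.38 (adjusted p = 0.28).

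In 42 of the 28225 genes the 12 cytokine libraries and the 6 rctrl libraries did not overlap, with 33 higher (0.117%) and 9 lower (0.0319%) in the cytokine wounds. The genes named from this set were chosen after their values were seen. Several of the higher genes named here are known from leukocytes. The actin bundler gene of leukocytes *lcp1.S* was at 18.5, 20.7 and 26.7 CPM in rCSF1 wounds, 20.7, 26.5 and 46 CPM in rIL34 wounds, and 11.3, 12.5 and 14.7 CPM in rctrl wounds (log2 fold change 0.96, adjusted p = 0.1). The adaptor gene of lymphocytes *sash3.L* had a pooled value of 0.87 (adjusted p = 0.12) and the adaptor gene *skap2.S* 0.59 (adjusted p = 0.12). Among the 9 lower genes, the DNA demethylase gene *tet3.L* was at 78.1, 107 and 117 CPM in rCSF1 wounds, 106, 115 and 128 CPM in rIL34 wounds, and 132, 140 and 145 CPM in rctrl wounds (log2 fold change -0.35, adjusted p = 0.11). Among the higher ones, the interleukin-12 receptor gene *IL12RB2_row1* had a value of 0.81 (adjusted p = 0.25) and *camp1.L* one of 1.13 (adjusted p = 0.5). The Notch ligand gene *dll1.L*, one of the 9 lower genes, had a pooled value of -0.68 (adjusted p = 0.25). DESeq2 called *lcp1.S*, *sash3.L*, *skap2.S* and *tet3.L* (adjusted p = 0.0067 to 0.023), and not *IL12RB2_row1*, *camp1.L* or *dll1.L*.

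**Figure D3:**
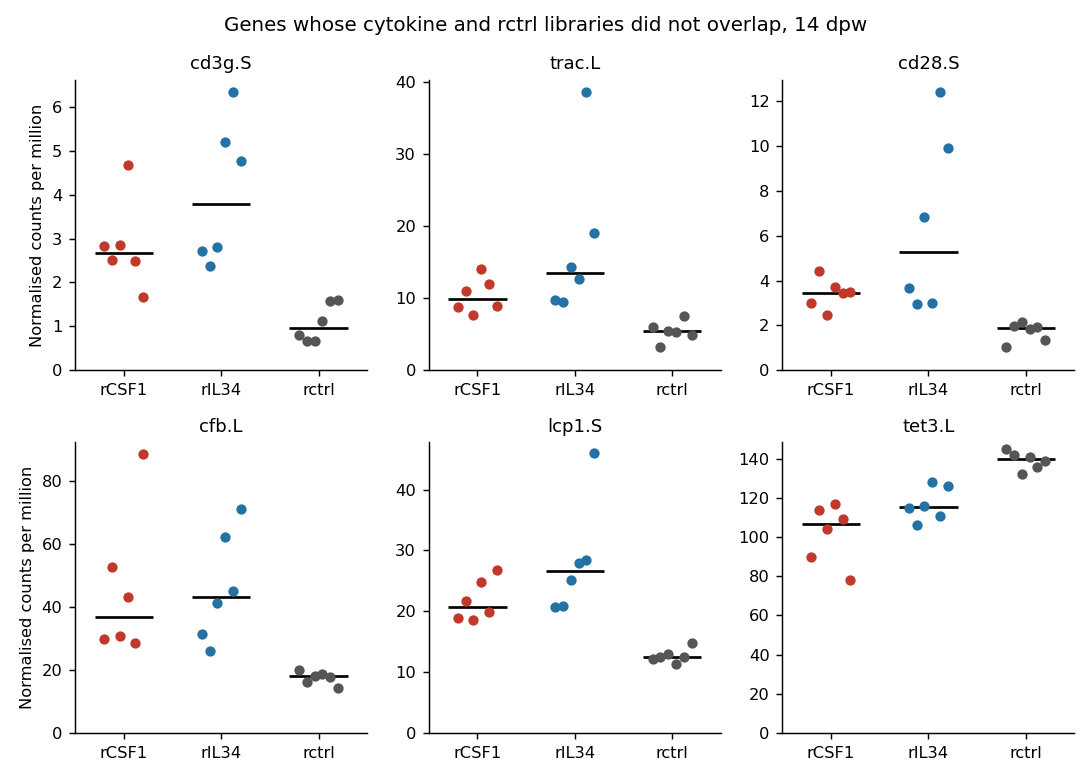
Normalized CPM of 6 of the 42 genes whose cytokine and rctrl libraries did not overlap at 14 dpw, 1 point per library, with a bar at each group's median of 6. *cd3g.S*, *trac.L*, *cd28.S*, *cfb.L* and *lcp1.S* lie higher in all 12 cytokine wounds, and *tet3.L* lies lower. None of the 6 passed the adjusted test in edgeR, while DESeq2 called all 6 (adjusted p = 7e-04 to 0.043).

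The 35 lists of cell type markers and pathway genes held no gene called in the pooled contrast by edgeR. Over all tested genes the median pooled log2 fold change was 0.00, and 24 of the 35 lists had a median above 0. The list medians ran from -0.52 to 3.38, and the highest apart from the muscle list was 0.80. The highest medians after muscle were those of the chemokine (0.80) and B cell (0.72) lists, then the T cell and neutrophil lists and the genes the study names at 14 dpw (0.70 each), and then complement (0.60). Each is described here by its members. DESeq2 called some members named below, such as *csf3r.L* (adjusted p = 0.041), *cxcl8.S* (0.0067), *c3.L* (0.0023) and *mmp13.S* (0.023). Others it did not call, such as *CSF1R* (adjusted p = 0.34), *cxcl8.L* (0.29), *mpo.L* (0.84) and *mmp1.S* (0.087). Over all 28225 tested genes, 14345 had a pooled value above 0. At an unadjusted p under 0.05, 5.11% of all tested genes were higher and 3.04% lower. The list counts below are to be read beside these shares.

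**Figure D4:**
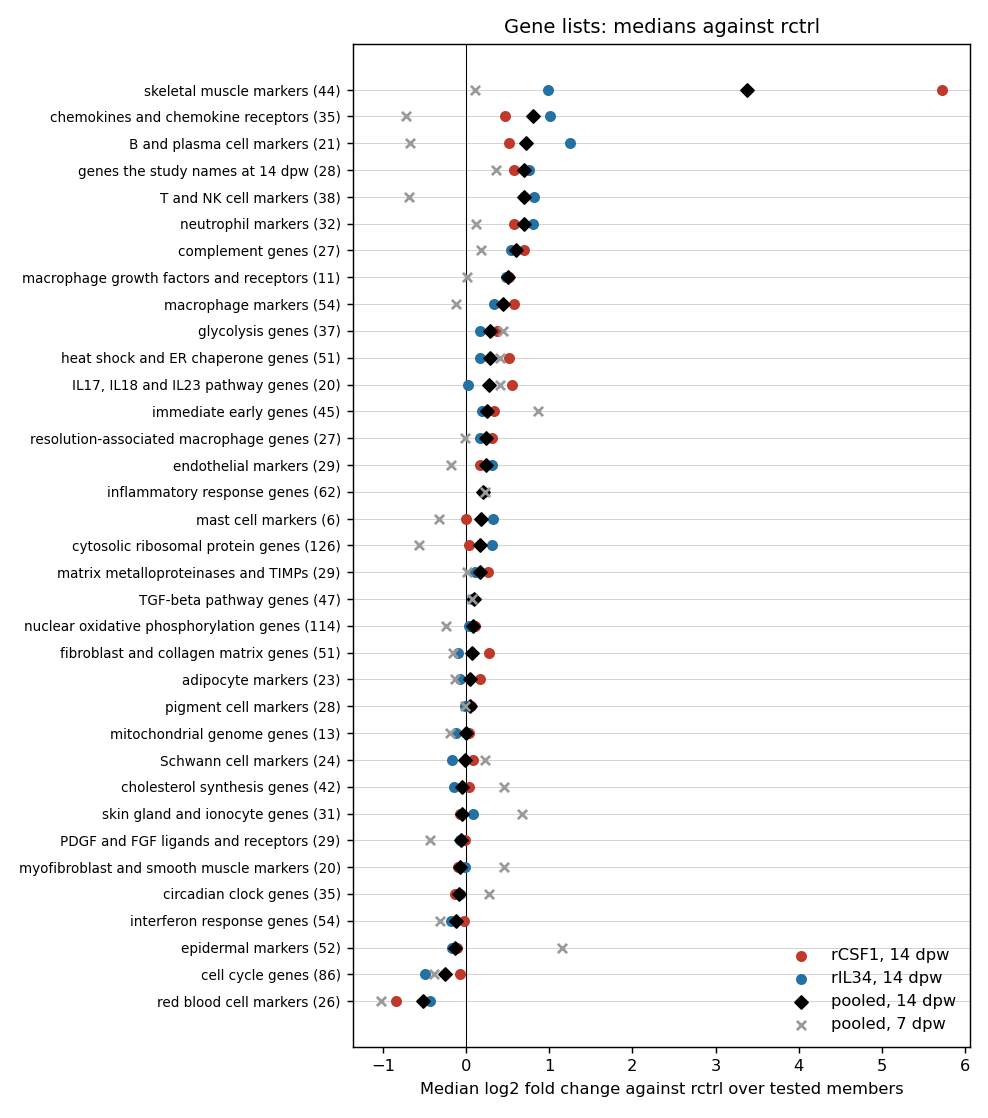
Median log2 fold change against rctrl over the tested members of 35 gene lists (number of tested rows in brackets), for rCSF1, rIL34 and the pooled cytokines at 14 dpw and the pooled cytokines at 7 dpw. The muscle list stands out at 5.73 for rCSF1 and 0.99 for rIL34, and the chemokine, T cell and B cell lists lie above 0 at 14 dpw and below 0 at 7 dpw.

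T and NK cell genes were mostly higher in the cytokine wounds without any passing in edgeR. Of 38 tested rows, 33 had a pooled value above 0, and 22 were higher and 0 lower by an unadjusted p below 0.05. Of all tested genes, 5.11% were higher and 3.04% lower by that measure. Over the list the median was 0.70 on the log2 scale, with 0.69 for rCSF1 and 0.81 for rIL34. DESeq2 called 7 members higher and 0 lower. The CD3 gamma chain gene of the T cell receptor complex, *cd3g.S*, was at 1.67, 2.68 and 4.68 CPM in rCSF1 wounds, 2.38, 3.79 and 6.34 CPM in rIL34 wounds, and 0.67, 0.964 and 1.61 CPM in rctrl wounds (log2 fold change 1.65, standard error 0.44, adjusted p = 0.13). All 12 cytokine wounds had more than the highest rctrl wound.

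Other T cell genes were also at low CPM. The T cell receptor alpha constant gene *trac.L* was at 7.74, 9.96 and 14 CPM in rCSF1 wounds, 9.49, 13.6 and 38.6 CPM in rIL34 wounds, and 3.16, 5.39 and 7.48 CPM in rctrl wounds (log2 fold change 1.32, adjusted p = 0.23). The costimulatory receptor gene *cd28.S* was at 2.46, 3.47 and 4.42 CPM in rCSF1 wounds, 2.97, 5.26 and 12.4 CPM in rIL34 wounds, and 1.05, 1.9 and 2.13 CPM in rctrl wounds (log2 fold change 1.46, adjusted p = 0.23). Neither pair of groups overlapped, and these 2 genes were singled out for that after their values were seen. The T cell kinase gene *lck.L* had a pooled value of 1.08 (adjusted p = 0.15), *cd3e.S*, of the CD3 complex, 1.19 (adjusted p = 0.23) and the interleukin-2 receptor gene *IL2RB_row2* 1.33 (adjusted p = 0.11). The summed level of the list overlapped between groups, at 273.3 to 405.6 CPM in rCSF1, 273.5 to 504.4 CPM in rIL34 and 241.5 to 299.8 CPM in rctrl wounds.

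All 21 tested rows of the B and plasma cell list had a pooled value above 0, and 11 were higher and 0 lower by an unadjusted p below 0.05 (median log2 fold change 0.72). The median was 0.52 for rCSF1 and 1.25 for rIL34. The B cell transcription factor gene *pax5.L* was at 0.26, 1.41 and 3.7 CPM in rCSF1 wounds, 0.955, 5.58 and 11.2 CPM in rIL34 wounds, and 0.278, 0.914 and 1.25 CPM in rctrl wounds (log2 fold change 1.89, standard error 0.55, adjusted p = 0.2). A second row, *PAX5*, had a value of 1.18 (adjusted p = 0.17). The B cell receptor genes *cd79a.S* and *CD79B_row1* had pooled values of 1.32 (adjusted p = 0.17) and 1.02 (adjusted p = 0.23). DESeq2 called 3 members of the list higher and 0 lower. Summed, the list was at 342.3 to 542.8 CPM in rCSF1, 369.6 to 494.3 CPM in rIL34 and 334 to 399.1 CPM in rctrl wounds. These groups overlapped.

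Neutrophil markers had 17 of 32 rows higher and 0 lower by an unadjusted p below 0.05, with a median log2 fold change of 0.70 (0.57 for rCSF1 and 0.80 for rIL34). The granulocyte colony-stimulating factor receptor gene *csf3r.L* was at 25.4, 37.9 and 45.6 CPM in rCSF1 wounds, 12.4, 29.4 and 35.2 CPM in rIL34 wounds, and 15.7, 19.2 and 24.4 CPM in rctrl wounds (log2 fold change 0.69, standard error 0.19, adjusted p = 0.17). For rCSF1 alone its value was 0.91 (adjusted p = 0.03) and for rIL34 alone 0.48 (adjusted p = 0.58). The beta-2 integrin gene *itgb2.L* had a pooled value of 0.78 (adjusted p = 0.11), the Src-family kinase gene *fgr.S* 0.81 (adjusted p = 0.1) and the oxidase subunit gene *ncf4.L* 1.08 (adjusted p = 0.2). The myeloperoxidase genes *mpo.L* and *mpo.S* had values of 0.38 (adjusted p = 0.87) and -0.02 (adjusted p = 1), and 3 and 1 of the 12 cytokine libraries lay above the highest rctrl library.

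Macrophage markers had 22 of 54 rows higher and 1 lower by an unadjusted p below 0.05, with a median of 0.44 (0.58 for rCSF1 and 0.33 for rIL34). The row *CSF1R*, the receptor of both cytokines, was at 35.8, 44.7 and 68.9 CPM in rCSF1 wounds, 32.8, 53.3 and 101 CPM in rIL34 wounds, and 25.8, 33.3 and 46.3 CPM in rctrl wounds (log2 fold change 0.63, standard error 0.27, adjusted p = 0.51). Its groups overlapped, with 6 of the 12 cytokine libraries above the highest rctrl library. The myeloid transcription factor gene PU.1, *spi1.L*, had a pooled value of 0.86 (adjusted p = 0.17), and the beta chain gene shared by the receptors for IL3, IL5 and GM-CSF, *csf2rb.L*, one of 2.39 (adjusted p = 0.11). The lysosomal marker *CD68* was at 0.87 (adjusted p = 0.25) and reached 83.3 CPM in rCSF1 replicate 6, against 35.1 CPM in the next rCSF1 library. Without rCSF1 replicates 1, 2 and 6 the pooled value of *CD68* was 0.52 (adjusted p = 0.92). The summed list was at 1868 to 2558 CPM in rCSF1, 1397 to 2544 CPM in rIL34 and 1325 to 1911 CPM in rctrl wounds.

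Chemokines and their receptors had 14 of 35 rows higher and 1 lower by an unadjusted p below 0.05, with a median of 0.80 (0.47 for rCSF1 and 1.01 for rIL34). The neutrophil attractant gene *cxcl8.S* was at 2.33, 4.98 and 9.61 CPM in rCSF1 wounds, 3.44, 6.53 and 10.6 CPM in rIL34 wounds, and 1.05, 1.58 and 2.8 CPM in rctrl wounds (log2 fold change 1.76, standard error 0.47, adjusted p = 0.13). In 10 of the 12 cytokine libraries it was above the highest rctrl library, and its L copy *cxcl8.L* had a pooled value of 1.20 (adjusted p = 0.54). The T cell attractant gene *ccl5.L* had a value of 0.80 (adjusted p = 0.23). The receptor genes *cxcr4.L* and *cxcr4.S* had values of 0.80 (adjusted p = 0.21) and 0.40 (adjusted p = 0.71). Summed, the list was at 247.1 to 305.3 CPM in rCSF1, 248.1 to 385.7 CPM in rIL34 and 223.3 to 269.8 CPM in rctrl wounds. These groups overlapped.

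The remaining chemokine rows that the study names at 14 dpw had low counts. The rows *CCL4*, *ccl4.L*, *Ccl4_row1* and *Ccl4_row2* had group medians of 0.109 to 1.71 CPM and pooled log2 fold changes of 0.90 to 1.94 (adjusted p = 0.3 to 0.72). The B cell attractant genes *cxcl13.L* and *cxcl13.S* had pooled values of 0.71 (adjusted p = 0.74) and 2.36 (adjusted p = 0.44), and *cxcl13.S* had group medians of 0.0741, 0.217 and 0.0766 CPM in rCSF1, rIL34 and rctrl wounds. Of all 28 rows of the study's list at 14 dpw, 13 were higher and 0 lower by an unadjusted p below 0.05 (median log2 fold change 0.70). That list was chosen by the study on these samples, so its direction is not independent evidence.

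Complement genes had 13 of 27 rows higher and 0 lower by an unadjusted p below 0.05, with a median of 0.60. The factor B gene *cfb.L*, of the alternative pathway, was at 28.6, 36.9 and 88.5 CPM in rCSF1 wounds, 26.1, 43.1 and 71.2 CPM in rIL34 wounds, and 14.4, 17.9 and 19.9 CPM in rctrl wounds (log2 fold change 1.39, standard error 0.3, adjusted p = 0.075). Its 12 cytokine libraries were all above the rctrl libraries, and the effect was 1.38 for rCSF1 and 1.40 for rIL34. Without rCSF1 replicates 1, 2 and 6 the pooled value of *cfb.L* was 1.18 (adjusted p = 0.46). The central component gene *c3.L* was at 16.6, 50.8 and 399 CPM in rCSF1 wounds, 7.43, 34.8 and 43 CPM in rIL34 wounds, and 5.64, 9.34 and 22 CPM in rctrl wounds (log2 fold change 2.30, adjusted p = 0.12). Its highest rCSF1 values were in replicates 6, 1 and 2, the wounds with muscle transcripts, and without them the pooled value was 1.12 (adjusted p = 0.88). The classical pathway protease gene *c1s.L* had a value of 1.52 (adjusted p = 0.16), or 0.95 without those wounds (adjusted p = 0.82), and the properdin gene *CFP* one of 1.27 (adjusted p = 0.15).

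Immediate early genes, which cells switch on within minutes of a stimulus, had 13 of 45 rows higher and 0 lower by an unadjusted p below 0.05, with a median of 0.25. The salt-inducible kinase gene *sik1.S* was at 1.41, 2.06 and 3.38 CPM in rCSF1 wounds, 1.66, 5.02 and 11 CPM in rIL34 wounds, and 0.711, 1.08 and 1.65 CPM in rctrl wounds (log2 fold change 1.67, standard error 0.39, adjusted p = 0.078). The orphan nuclear receptor gene *nr4a1.L* had a pooled value of 1.22 (adjusted p = 0.13), or 0.95 without rCSF1 replicates 1, 2 and 6 (adjusted p = 0.69). Heat shock and ER chaperone genes had 18 of 51 rows higher and 0 lower by the same measure (median 0.29), with *hspa5.S*, the ER chaperone BiP, at 1.19 (adjusted p = 0.18) and the ER stress factor gene *manf.S* at 0.89 (adjusted p = 0.26).

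Fewer lists lay below 0. By an unadjusted p below 0.05, 0 of 86 cell cycle rows were higher and 14 lower, against 5.11% and 3.04% of all tested genes. The median log2 fold change of the list was -0.26. The median was -0.07 for rCSF1 and -0.49 for rIL34. The proliferation marker *mki67.S* was at 23.5, 29.6 and 46.8 CPM in rCSF1 wounds, 16.2, 22.3 and 27.6 CPM in rIL34 wounds, and 31.3, 40.8 and 59.9 CPM in rctrl wounds (log2 fold change -0.68, standard error 0.2, adjusted p = 0.21). All 6 rIL34 wounds were below the lowest rctrl wound, and 10 of the 12 cytokine wounds were. The centromere gene *cenpf.L* had a pooled value of -0.47 (adjusted p = 0.38).

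Red blood cell markers had 0 of 26 rows higher and 9 lower by an unadjusted p below 0.05, with a median of -0.52. The alpha globin gene *hba3.L* was at 21.8, 58.8 and 84.4 CPM in rCSF1 wounds, 27.5, 75.6 and 96.6 CPM in rIL34 wounds, and 39.4, 80.9 and 751 CPM in rctrl wounds (log2 fold change -1.59, adjusted p = 0.27). The value of 751 CPM came from rctrl replicate 3, and the next rctrl library was at 127 CPM. Without that wound the pooled values were -0.29 for *hba3.L* (adjusted p = 0.94) and -0.55 for *hbd.S* (adjusted p = 0.85), and the median of the list was 0.32.

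Of the 35 lists, that of skeletal muscle had the largest median in the pooled contrast. Of 44 tested rows, 36 were higher and 0 lower by an unadjusted p below 0.05, with a median log2 fold change of 3.38, made up of 5.73 for rCSF1 and 0.99 for rIL34. The thin-filament gene nebulin, *neb.S*, was at 16.3, 184 and 4020 CPM in rCSF1 wounds, 2.83, 4.3 and 57.6 CPM in rIL34 wounds, and 1.49, 2.25 and 8.55 CPM in rctrl wounds (log2 fold change 5.20, standard error 1.09, adjusted p = 0.075). The 3 highest values were in rCSF1 replicates 6, 2 and 1, at 4020, 818 and 339 CPM. The muscle creatine kinase gene *ckm.L* (5.39), the skeletal actin gene *acta1.L* (5.78) and the fast-fibre actinin gene *actn3.L* (4.49) had adjusted p-values of 0.075 as well. DESeq2 called 27 of the 44 rows higher.

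Without rCSF1 replicates 1, 2 and 6, the median of the muscle list was 0.98, *neb.S* and *ckm.L* were at 2.56 (adjusted p = 0.56 and 0.63) and *actn3.L* was at 1.76 (adjusted p = 0.66), while *acta1.L* no longer passed the filter. *tf.L* was at 3.44 without them (adjusted p = 0.46). The medians of the T cell, B cell, neutrophil and macrophage lists without those wounds were 0.76, 0.75, 0.68 and 0.38, and that of the complement list was 0.39. Genes without overlap between the cytokine and rctrl libraries then numbered 81 in place of 42, among fewer libraries. The punch left the underlying muscle in place, and whether muscle entered these samples at collection was not tested.

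Of the matrix genes that the study follows at 14 dpw, those of collagen I had pooled values near 0. Several metalloproteinase genes, given further below, did not. The collagen I genes *col1a1.L*, *col1a1.S*, *col1a2.L* and *col1a2.S* had pooled log2 fold changes of -0.04, -0.04, 0.05 and -0.03 (adjusted p = 0.99 each), and the collagen III genes *col3a1.L* and *col3a1.S* had 0.23 (adjusted p = 0.92) and 0.28 (adjusted p = 0.91). These means join values of opposite sign, 0.37 to 0.55 for rCSF1 and -0.56 to -0.45 for rIL34 in the collagen I genes, none of them called. *col1a2.L* was at 2900, 4100 and 5810 CPM in rCSF1 wounds, 1420, 2060 and 2620 CPM in rIL34 wounds, and 1250, 2500 and 4390 CPM in rctrl wounds. The rCSF1 and rIL34 libraries of *col1a2.L* did not overlap, with a difference of 1.00 on the log2 scale (standard error 0.34, adjusted p = 0.15). The log2 ratio of summed collagen I to collagen III was 3.51 ± 0.32 in rCSF1, 3.24 ± 0.52 in rIL34 and 3.59 ± 0.3 in rctrl wounds (SD, n = 6 each), and the pooled difference of -0.22 had an exact two-sided permutation p of 0.3 over 18564 regroupings.

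The smooth muscle actin genes of myofibroblasts, *acta2.L* and *acta2.S*, had pooled values of -0.05 and -0.01 (adjusted p = 0.99 and 1), and the sign of both changed between settings. Matrix metalloproteinase genes had wide groups. *mmp13.S* was at 8.04, 15.4 and 82.5 CPM in rCSF1 wounds, 8.03, 19.3 and 147 CPM in rIL34 wounds, and 4.93, 6.13 and 12 CPM in rctrl wounds (log2 fold change 2.22, standard error 0.66, adjusted p = 0.21). *mmp1.S* and *mmp1.L*, collagenase genes, had values of 2.62 (adjusted p = 0.39) and 2.81 (adjusted p = 0.54), and without rIL34 replicate 4 they were at 1.61 and 1.59. The membrane-type gene *mmp25.L* had a value of 0.89 and its second row *MMP25* one of 1.18 (adjusted p = 0.25 each), and matrilysin, *mmp7.L*, one of 0.46 (adjusted p = 0.8). This last mean joins unlike groups, at 49.7 to 105 CPM in rCSF1, 16.8 to 64.2 CPM in rIL34 and 28.7 to 43 CPM in rctrl wounds. Every rCSF1 library of *mmp7.L* was above the highest rctrl library, while the rIL34 libraries overlapped the rctrl ones.

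The cytokines were also set against each other, since the pooled contrast averages them. Between rCSF1 and rIL34 wounds 306 genes were higher after rCSF1 (1.08%) and 43 lower (0.152%). Of the 44 muscle rows, 28 were among the higher genes, and 3 were when rCSF1 replicate 6 was left out. The strongest calls by p-value were 3 automatic loci, LOC108701067 (log2 difference 6.02), LOC108719653 (4.95) and LOC108717439 (4.38), the muscle protease gene *ky.L* (5.16) and the glutamyl-prolyl-tRNA synthetase gene *eprs1.L* (0.82), each with an adjusted p of 0.0034. The 3 loci and *ky.L* were highest in rCSF1 replicate 6, as the muscle genes were. *eprs1.L* was instead even within groups, at 81.2, 106 and 134 CPM in rCSF1 wounds and 48.4, 57.4 and 72.1 CPM in rIL34 wounds, beside 71.9, 92.2 and 108 CPM in rctrl wounds.

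Genes lower after rCSF1 than after rIL34 included endothelial selectins and *fos*. P-selectin, *selp.L*, by which activated vessels catch leukocytes, was at 2.03, 3.01 and 4.82 CPM in rCSF1 wounds and 3.7, 9.76 and 48.1 CPM in rIL34 wounds, with a log2 difference of -2.26 (standard error 0.47, adjusted p = 0.0098). Its rctrl values were 1.36, 2.44 and 4.17 CPM. E-selectin, *Sele_row1*, named after its values were seen, had a difference of -2.44 (adjusted p = 0.027). Both were highest in rIL34 replicate 4, at 48.1 and 25.6 CPM, and without that wound the differences were -1.47 (adjusted p = 0.051) for *selp.L* and -1.58 (adjusted p = 0.13) for *Sele_row1*. Without rCSF1 replicate 6 they were -2.14 (adjusted p = 0.053) and -2.34 (adjusted p = 0.11), and *Sele_row1* was not called either without rCSF1 replicate 1 or 3 or rIL34 replicate 5 or 6 (adjusted p = 0.053 to 0.06).

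The AP-1 subunit gene *fos.S* had a difference of -2.64 between rCSF1 and rIL34 (standard error 0.55, adjusted p = 0.0098) and *fos.L* one of -2.46 (standard error 0.56, adjusted p = 0.018). In rIL34 replicates 1 and 5 *fos.L* was at 20.1 and 10.8 CPM, and in the other rIL34 wounds at 1.3 to 1.83 CPM, beside 0.276 to 1.87 CPM in rCSF1 and 0.259 to 0.958 CPM in rctrl wounds. Without rIL34 replicate 1 the differences were -1.88 for *fos.S* (adjusted p = 0.055) and -1.58 for *fos.L* (adjusted p = 0.13), and *fos.L* also missed the threshold without rIL34 replicate 5 or rCSF1 replicate 1 or 6 (adjusted p = 0.051 to 0.067). Also lower after rCSF1 were *slurp1l.S* (-1.80, adjusted p = 0.009), LOC121400645 (-2.42, adjusted p = 0.013) and LOC108713631 (-0.95, adjusted p = 0.015). Each of these 3 was lost without 1 library, *slurp1l.S* without rIL34 replicate 6 (adjusted p = 0.052), LOC121400645 without rCSF1 replicate 6 (adjusted p = 0.055) and LOC108713631 without rIL34 replicate 5 (adjusted p = 0.061). In the pooled contrast, *fos.L* and *fos.S* had values of 2.15 (adjusted p = 0.1) and 1.88 (adjusted p = 0.14). Without rCSF1 replicates 1, 2 and 6, a fit with less power, no gene was called between the cytokines by edgeR. At an unadjusted p under 0.05, 1748 genes differed. LOC108717439 was then at 0.21 (adjusted p = 0.95) and LOC108719653 at 0.59 (adjusted p = 0.88), LOC108701067 and *ky.L* no longer passed the filter, and *eprs1.L* was at 0.78 (adjusted p = 0.17) and *fos.S* at -2.75 (adjusted p = 0.35).

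**Figure D5:**
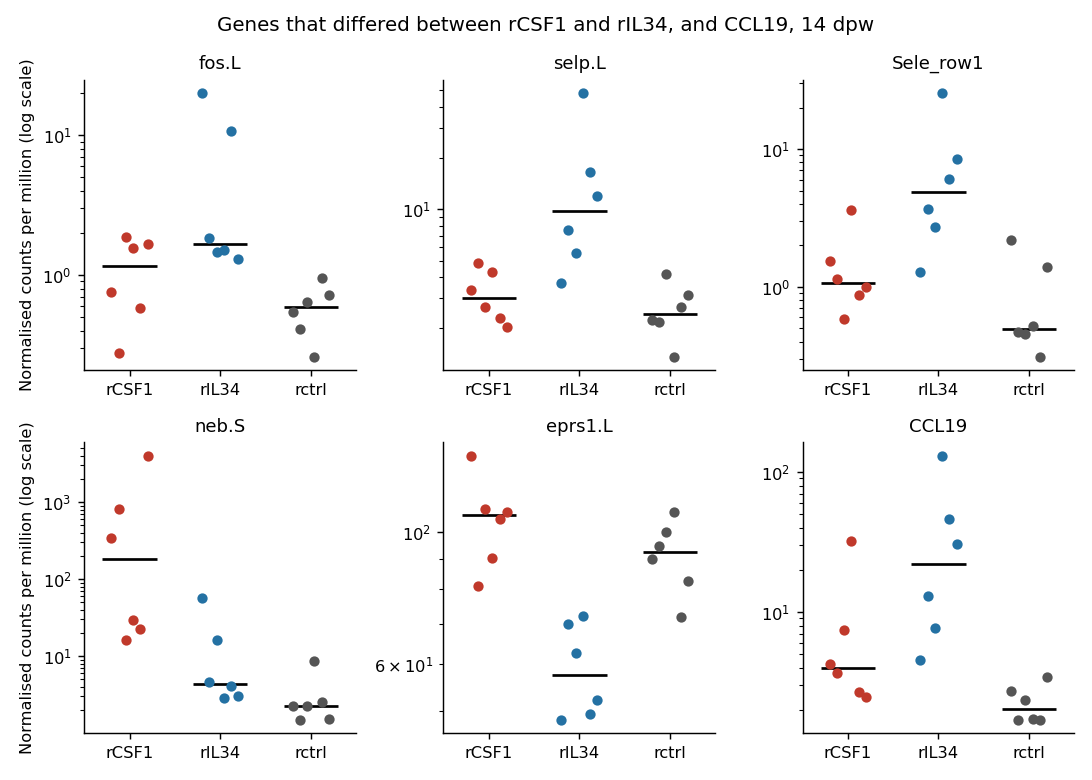
Normalized CPM (log axes) of 5 genes called between rCSF1 and rIL34 wounds at 14 dpw and of *CCL19*, which was not, 1 point per library with a bar at each group's median of 6. *fos.L* is high in 2 rIL34 wounds (20.1 and 10.8 CPM), *selp.L*, *Sele_row1* and *CCL19* peak in rIL34 replicate 4, *neb.S* peaks in 3 rCSF1 wounds, and *eprs1.L* separates all 6 rCSF1 from all 6 rIL34 wounds.

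The pooled effect at 14 dpw was then compared with the pooled effect at 7 dpw, as the difference of the 2 effects in the model of all 36 libraries. This difference was called for far more genes than the effect at 14 dpw itself. The effect was higher at 14 than at 7 dpw for 2030 genes (7.19%) and lower for 3395 (12%). At 7 dpw the pooled effect itself was called for 9744 of 28225 genes, with 5519 higher and 4225 lower than in rctrl wounds. Among the lists, 19 of 38 T and NK cell rows, 15 of 35 chemokine rows, 9 of 21 B cell rows and 74 of 126 ribosomal protein rows had a higher effect at 14 dpw. In the T cell, chemokine and ribosomal protein lists 0 rows had a lower one, and in the B cell list 1. In the opposite direction lay 36 of 52 epidermal rows, 12 of 31 skin gland and ionocyte rows and 19 of 45 immediate early rows. Of the immediate early rows 1 was called the other way, of the epidermal and gland rows 0.

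The T cell genes *cd3g.S* and *trac.L* had negative pooled effects at 7 dpw and positive ones at 14 dpw. *cd3g.S* had a pooled log2 fold change of -1.44 at 7 dpw and 1.65 at 14 dpw, a difference of 3.09 (standard error 0.58, adjusted p = 7.4e-04). *trac.L* had -1.77 at 7 dpw and 1.32 at 14 dpw, a difference of 3.09 (standard error 0.55, adjusted p = 5.1e-04). The called gene *jak3.L* was at -0.37 at 7 dpw (adjusted p = 0.07) and 1.05 at 14 dpw, a difference of 1.42 (standard error 0.23, adjusted p = 2.9e-04). The T cell list had a median of -0.69 at 7 dpw and 0.70 at 14 dpw. Summed, it was at 261.4 to 637.8 CPM in rCSF1, 242.5 to 377.5 CPM in rIL34 and 330.1 to 785.6 CPM in rctrl wounds at 7 dpw.

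Genes of translation had smaller differences between the times. The ribosomal protein list had a median of -0.57 at 7 dpw and 0.17 at 14 dpw. *rplp2.S*, of the ribosomal stalk, had a difference of 1.28 (standard error 0.2, adjusted p = 1.9e-04), *rpl14.S* one of 1.47 and the elongation factor gene *eef1b2.L* one of 1.26 (adjusted p = 1.7e-04 each). LOC108708523 (1.26), LOC121393051 (1.39) and LOC121394610 (1.42) complete the 5 strongest calls by p-value in this direction together with *rpl14.S* and *eef1b2.L*.

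For epidermal genes the pooled effect was mostly positive at 7 dpw and near 0 at 14 dpw. The plakoglobin gene *jup.S*, of the desmosomes and adherens junctions, had a pooled value of 1.66 at 7 dpw (adjusted p = 1.4e-06) and -0.38 at 14 dpw (adjusted p = 0.6), a difference of -2.05 (standard error 0.27, adjusted p = 4.7e-05). At 14 dpw it was at 431, 464 and 597 CPM in rCSF1, 336, 410 and 495 CPM in rIL34 and 461, 584 and 724 CPM in rctrl wounds. The desmocollin gene *dsc3.L* had a difference of -1.59 (adjusted p = 8.6e-04). The other strongest calls were the lipid synthesis gene *agpat2.S* (-2.10), the proton pump subunit gene *atp6v0c.L* (-1.38), LOC108699878 (-1.36) and the calpain subunit gene *capns1.L* (-1.40, adjusted p = 6.7e-05, and 4.7e-05 for the other 3). The epidermal list had a median of 1.15 at 7 dpw and -0.14 at 14 dpw, and that of immediate early genes 0.86 at 7 dpw and 0.25 at 14 dpw.

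Earlier results of these data were the reason to leave out replicates 2 and 5 of rCSF1 at 7 dpw in 1 alternative. In what these 2 wounds stand apart is not shown here. Without them, an alternative chosen after seeing the data, 19 T cell, 17 chemokine, 8 B cell and 69 ribosomal protein rows had a higher effect at 14 dpw, and 33 epidermal and 11 gland rows a lower one. Immediate early rows with a lower effect at 14 dpw were 9 of 45 without these 2 wounds, and also 9 without rCSF1 replicates 1, 2 and 6 of 14 dpw. Of the 28158 and 27979 genes tested in those settings, 2394 and 2510 had a lower effect at 14 dpw, in place of 3395. A higher one was called for 2139 and 1354, in place of 2030. Without rCSF1 replicates 2 and 5 of 7 dpw the pooled contrast at 14 dpw had 17 genes higher and 3 lower.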

How the data were processed

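RNA was sequenced from wounded skin, 6 libraries for each of 3 treatments at 7 and 14 dpw. Per the labels and the study's methods the authors depleted rRNA, although the molecule label reads polyA, used a strand-specific kit, aligned read pairs with minimap2 2.29 and SAMtools 1.16.1 to Xenopus_laevis_v10.1 and deposited raw counts per gene from featureCounts 2.1.1. No strand setting is named, so overlapping genes on opposite strands, and L and S copies, can share reads. The table has 42675 rows, of which 418 without a gene name (1.08% of counts) were left out. A symbol on several rows (122 symbols, 318 rows) carries a row number, and 38754 rows matched RefSeq.

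The deposited counts were tested in R 4.3.3 with edgeR 4.0.16 (TMM, glmQLFit, glmQLFTest), with 6 groups of all 36 libraries in 1 model, after a filter of 0.5 CPM in at least 10 libraries, and p-values were adjusted over all genes tested. The study itself used DESeq2, and DESeq2 1.42.0 and limma 3.58.1 (voom) were alternatives, beside RLE scaling, filters of 0 and 5 CPM, the 18 libraries alone, the 12 cytokine libraries as 1 group, a replicate block, summed L and S copies and each library left out. Summed levels and lists carry no p-value, and the collagen ratio had an exact permutation test.

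Members and lists were chosen with earlier results of these data known. Genes were named as those the study names, the strongest called genes with a non-automatic symbol and a mean of at least 1 CPM, the 5 smallest p-values in each direction between cytokines and between times, and up to 4 members of each list by p-value. Others are said to be named after their values were seen.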

Additional observations from a re-analysis of the deposited data

Results flagged for a closer look

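In 56 of 327 groups of 6 libraries 1 library lay far from the others by Dixon's test. Its rate of 1 in 20 (16 groups) holds for independent values with a normal spread. These were mostly unlogged CPM of genes partly named after their values were seen, and many rose in the same wounds. The 56 can therefore not be set against 16. Of the 56, 15 were in rCSF1 replicate 6, 10 in rIL34 replicate 4 and 6 each in rCSF1 replicate 4 and rIL34 replicate 1.

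In rCSF1 wounds the values standing apart were, in CPM, 308 for *tf.L*, 54.3 for *tf.S*, 32.1 for *CCL19*, 12.5 for *csf2rb.L*, 83.3 for *CD68*, 9.54 for *lck.L*, 399 for *c3.L*, 204 for *c1s.L*, 13.1 for *nr4a1.L*, 22.4 for *mmp1.S*, 3.64 for *Sele_row1* and 16.2 for *agpat2.S*. Muscle genes among them were *neb.S* (4020), *acta1.L* (286), *ckm.L* (3320), *actn3.L* (1230) and *ky.L* (71.7). The loci were LOC108701067 (135), LOC108717439 (273) and LOC108719653 (431). The muscle list at 4.56% of counts also stood apart.

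In rIL34 wounds they were 404 for *tf.L*, 49.9 for *tf.S*, 131 for *CCL19*, 26.8 for *xetrov90011961m.S*, 46 for *lcp1.S*, 38.6 for *trac.L*, 13.3 for *camp1.L*, 13.1 for *csf2rb.L*, 8.32 for *cxcr4.L*, 3.09 for *Ccl4_row2*, 2.15 for *cxcl13.S*, 27.3 for *mmp1.L*, 226 for *mmp1.S*, 147 for *mmp13.S*, 48.1 for *selp.L*, 18.1 for *slurp1l.S* and 25.6 for *Sele_row1*. Muscle genes were at 57.6 (*neb.S*), 116 (*ckm.L*) and 20.8 (*actn3.L*) in 1 wound each, LOC108717439 was at 4.71, LOC108708523 at 1960, and the muscle list at 0.121% of counts.

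In rctrl wounds they were 1.88 for *IL2RB_row2*, 0.216 for *cd79a.S*, 0.396 for *CCL4*, 1.22 for *Ccl4_row1*, 344 for *hbd.S*, 751 for *hba3.L*, 38.4 for *cenpf.L*, 11.1 for *mmp1.S*, 8.55 for *neb.S*, 0.712 for *acta1.L*, 8.81 for *ckm.L* and 0.745 for LOC108701067.

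The effects of rCSF1 and rIL34 differed by edgeR's test for 349 genes, among them LOC108701067 (6.02), *ky.L* (5.16), LOC108719653 (4.95), LOC108717439 (4.38), *eprs1.L* (0.82), *crhr2.L* (0.65), LOC108713631 (-0.95), *slurp1l.S* (-1.80), *selp.L* (-2.26), LOC121400645 (-2.42), *Sele_row1* (-2.44), *fos.L* (-2.46) and *fos.S* (-2.64), on the log2 scale.

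The pooled effects at 14 and 7 dpw differed for 5425 genes. The higher ones at 14 dpw included *cd3g.S* and *trac.L* (3.09 each), *rpl14.S* (1.47), *jak3.L* and LOC121394610 (1.42 each), LOC121393051 (1.39), *rplp2.S* (1.28), and *eef1b2.L* and LOC108708523 (1.26 each). The lower ones included *agpat2.S* (-2.10), *jup.S* (-2.05), *dsc3.L* (-1.59), *capns1.L* (-1.40), *atp6v0c.L* (-1.38) and LOC108699878 (-1.36).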

How the results depend on the processing

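The 3 genes called in the pooled contrast became 278 under DESeq2, 13 with the 18 libraries alone, 6 with the 12 cytokine libraries as 1 group, 0 of them among the 3, 13 under limma voom, and 20 without rCSF1 replicates 2 and 5 of 7 dpw, an alternative chosen after seeing the data. LOC121400960 was lost with the 18 libraries (adjusted p = 0.06). Leaving out 1 library gave 1 (without rctrl replicate 3 or 4) to 61 (without rCSF1 replicate 5). For rCSF1 the 269 calls became 541 under DESeq2, 66 at 5 CPM, 155 with 18 libraries, 91 under voom and 4 without replicates 1, 2 and 6, and 81 to 349 without 1 library. For rIL34 the 14 became 184 under DESeq2, 193 with 18 libraries and 131 under voom. They became 126 without rCSF1 replicates 2 and 5 of 7 dpw, and 1 to 42 without 1 library. Between cytokines the 349 became 768, 692, 797 and 687 in that order, 0 without rCSF1 replicates 1, 2 and 6, and 65 (without rCSF1 replicate 6) to 460 without 1 library. The difference between times had 5425 calls, 3864 to 6400 under its alternatives and 4446 to 5473 without 1 library of 14 dpw. Genes without overlap were 42, 81 without the 3 rCSF1 wounds and 44 to 85 without 1 library. The cause was not tested, except that fewer libraries leave fewer values to overlap.

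With a replicate block the calls were 1 in the pooled contrast (*crhr2.L*, adjusted p = 0.043, with 0.099 for *jak3.L* and LOC121400960), 8 for rCSF1, 0 for rIL34 (edgeR) and 60 between cytokines. Over 18 same-numbered pairs the correlation of deviations was -0.15 to 0.131, and 2 were over 0.1. With 0 libraries correlating best with their own number, the numbers were not taken as pairing. These are the replicate numbers of the sample titles, which mostly differ from the numbers in the library names. The block and this check therefore cannot speak to a pairing by library name. 

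The genes that turned sign were uncalled and near 0, and the median of the red blood cell list was 0.32 without rctrl replicate 3, in place of -0.52. With 12 libraries as 1 group *col1a1.L* and *col1a1.S* were at 0.03, *col1a2.S* at 0.07, *acta2.S* at 0.01 and *mpo.S* at 0.04. With the replicate block *acta2.S* was at 0.01 and *mpo.S* at 0.09. Under voom *col1a1.L* was at 0.03, *acta2.S* at 0.02 and *mpo.S* at 0.06. With copies summed *col1a2.S* was at 0.01 and *mpo.S* at 0.33. Without rCSF1 replicates 1, 2 and 6 *acta2.L* was at 0.02 and *acta2.S* at 0.08. Leaving out 1 library gave -0.21 to 0.16 for *col1a1.L* and *col1a1.S*, -0.10 to 0.22 for *col1a2.L*, -0.20 to 0.16 for *col1a2.S*, -0.16 to 0.08 for *acta2.L*, -0.14 to 0.13 for *acta2.S* and -0.15 to 0.31 for *mpo.S*. Of 3223 gene values under alternatives, 3001 kept direction and side of the threshold, 64 lost the call, 112 gained it and 46 changed sign. A permutation test of list sums and a pseudocount of 1 CPM for summed levels were planned and not run.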
